A study of Mus musculus with 20 samples.

Results

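The lectin receptor gene Clec4g was examined together with 7 genes that mark lymphatic and sinusoidal endothelium, Lyve1, Stab1, Stab2, Prox1, Flt4, Pdpn and Reln, in embryonic hearts of 2 mouse models of Down syndrome. These 8 genes were found by symbol among the 48795 genes of the deposited table. Clec4g and Lyve1 had been selected on their higher values in mutant hearts, so their differences between mutant and wild-type (WT) hearts are given as descriptions, with no test. The other 6 had been chosen by their known use as markers and were tested. All 8 passed the filter on low values, by which 5 or more of the 10 hearts of a comparison had to reach a normalised value of 10, in both strains.

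Lymphatic vessels begin as venous endothelial cells that switch on the homeobox factor Prox1 and move away from the veins towards the growth factor Vegfc, which they sense with its receptor Flt4. Sinusoids are the wide, leaky vessels of organs such as liver and spleen. Their lining cells clear material from the blood with scavenger receptors (Stab1 and Stab2), the hyaluronan receptor Lyve1 and lectins such as Clec4g. None of these genes is particular to a single cell type in an embryo: Lyve1 and Stab1 are also used by tissue macrophages, Prox1 by heart muscle cells and Pdpn by epicardium.

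Whole hearts were taken at E13.5, a day by which the chambers and septa are formed or forming, and their poly(A) RNA was sequenced, in 4 groups of 5 hearts. Dp3Tyb embryos carried the duplication Dp(16Mir802-Zbtb21)3TybEmcf of a segment of chromosome 16, whose genes are then in 3 copies, and have been described with heart defects. Ts1Rhr embryos carried the shorter duplication Dp(16Cbr1-Fam3b)1Rhr of the same chromosome. The study describes Ts1Rhr hearts as free of such defects, although 2 of the 5 Ts1Rhr samples (replicates 1 and 2) are labelled as having them. Each strain had its own WT littermates, and all mice were on the C57BL/6J background. None of the 8 genes lies on chromosome 16. The deposited value is a read number divided by a size factor of the library, and it is called the normalised value here. A whole heart holds many cell types, and in such samples fewer cells of a type and less RNA per cell cannot be told apart.

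Libraries held between 6.601 and 19.6 M reads. In 2 respects libraries stood apart from the others of their group. The share of mitochondrially encoded reads was between 10.5% and 19.5% in 7 libraries (replicate 5 of Dp3Tyb and of its WT group, replicates 1 and 2 of Ts1Rhr, and replicates 1, 2 and 4 of the Ts1Rhr WT group) and between 4.85% and 7.17% in the other 13. The markers of lung and foregut, a list of 12 genes of tissue that lies next to the heart, had a mean log2(value + 1) of 3.62 to 5.87 in 15 hearts and of 1.22 to 1.93 in 5 hearts. The 5 hearts low in these markers were WT replicates 2, 4 and 5 of the Dp3Tyb cohort and Ts1Rhr replicates 1 and 3, so in the Dp3Tyb cohort they were all WT and in the Ts1Rhr cohort they were all mutant. The heart muscle gene Ttn was between 8748 and 23352 normalised values in every heart.

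RefSeq places Clec4g at chr8:3707066-3720695, Lyve1 at chr7:110850607-110862953, Stab1 at chr14:31139017-31168651, Stab2 at chr10:86841194-87008038, Prox1 at chr1:190118035-190170827, Flt4 at chr11:49609679-49652739, Pdpn at chr4:143267409-143299564 and Reln at chr5:21884454-22344705 (GRCm38.p6). Promoter sequence was matched for 7 of the 8 genes and not for Lyve1. It is shown for Clec4g, the gene with the largest difference between mutant and WT hearts, and for Stab1 and Stab2, 2 related receptors of very unlike level. The windows end at the first base outside the gene and run along its strand (the minus strand for all 3), and they lie at chr8:3720696-3720901, chr14:31168652-31168891 and chr10:87008039-87008192. Capitals mark matches on either strand to 5 short motifs of transcription factors that act in endothelium, which are AACAAT for the SOX family, AGATAA for the zinc finger factors of the Gata family, AGGAAG for the ETS family, AGGTCA for the nuclear receptors of the NR2F family and TGCTGA for the MAF family.
Clec4g: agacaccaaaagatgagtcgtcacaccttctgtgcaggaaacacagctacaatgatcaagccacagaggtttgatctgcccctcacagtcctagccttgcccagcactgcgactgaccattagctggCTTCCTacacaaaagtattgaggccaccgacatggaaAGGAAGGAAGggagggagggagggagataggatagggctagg
Stab1: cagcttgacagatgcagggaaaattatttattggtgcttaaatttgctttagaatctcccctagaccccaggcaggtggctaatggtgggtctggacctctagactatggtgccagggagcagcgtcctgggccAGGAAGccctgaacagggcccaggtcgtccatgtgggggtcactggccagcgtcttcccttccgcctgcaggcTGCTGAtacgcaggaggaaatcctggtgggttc
Stab2: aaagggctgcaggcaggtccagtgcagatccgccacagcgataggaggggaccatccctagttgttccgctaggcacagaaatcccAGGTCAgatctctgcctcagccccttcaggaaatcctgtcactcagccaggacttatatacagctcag

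In the full 250 bases before the start site, Clec4g held 3 matches to the ETS motif, 2 of which overlap in a run of repeats, and no match to the other 4 motifs. Stab1 held 1 match each to the ETS and MAF motifs. Stab2 held 1 match each to the ETS and NR2F motifs, the first of them inside the gene and not shown. Pdpn held 1 match to the NR2F motif, and Prox1, Flt4 and Reln held none of the 5. Of 32851 promoter windows of the same length, 29.5% held the ETS motif, 14% the NR2F motif, 16.1% the MAF motif, 9.99% the GATA motif and 9.42% the SOX motif. The sequences are RefSeq's, and a match describes letters only.

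Clec4g encodes a C-type lectin of liver and lymph node sinusoidal endothelium. Its normalised values in the WT hearts of the Dp3Tyb cohort were 26.7, 13.7, 12.4, 32.2 and 26.4, against 51.9, 54.0, 43.2, 39.8 and 51.7 in Dp3Tyb hearts. In the Ts1Rhr cohort they were 18.4, 20.6, 24.2, 26.8 and 18.6 in WT hearts and 55.1, 38.1, 60.4, 45.5 and 46.8 in Ts1Rhr hearts. Every mutant heart was above every WT heart of its own cohort, and both WT groups were at a similar level. The means were 22.3 ± 8.74 in WT and 48.1 ± 6.23 in Dp3Tyb hearts (SD, n = 5 each). The log2 fold change, on the log2(value + 1) scale, was 1.16 ± 0.27 (standard error, SE). They were 21.7 ± 3.68 in WT and 49.2 ± 8.70 in Ts1Rhr hearts (SD, n = 5 each), where the log2 fold change was 1.14 ± 0.18 (SE).

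The 2 strains have separate littermates, so these are separate sets of hearts, but both were in view when the gene was picked. All values of the mutants were above all values of the WT hearts for 74 of 14763 genes in Dp3Tyb (0.501%), for 92 of 14867 genes in Ts1Rhr (0.619%) and for 22 of 14605 genes in both (0.151%). Of those 22 genes 10 lie on chromosome 16, as the duplications do, and 12 lie elsewhere, Clec4g among them. Clec4g had the largest log2 fold change of the 22 in each strain. Nothing is read from these shares about Clec4g, since it was picked on the same values.

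The reads behind Clec4g were few, between 9 and 43 per WT library and between 37 and 69 per mutant library. For WT replicate 5 of the Dp3Tyb cohort, the library with 9 reads, the exact 95% Poisson interval of the normalised value was 12.1 to 50.2, which reaches the values of Dp3Tyb hearts. For WT replicate 4, the WT heart with the highest value, the interval was 23.3 to 43.3, which reaches the Dp3Tyb values of 39.8 and 43.2. In the Ts1Rhr cohort the interval of WT replicate 4, with 14 reads, was 14.65 to 44.96, which reaches the Ts1Rhr value of 38.1. Such intervals cover counting error only. The Ts1Rhr hearts labelled with heart defects had 55.1 and 38.1, and the 3 labelled without had 45.5 to 60.4, so these labels did not separate the values.

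The Clec4g values were set beside the libraries that stood apart. They were between 18.4 and 55.1 in the 7 libraries high in mitochondrial reads and between 12.4 and 60.4 in the other 13. Without the 7 libraries the means were 21.2 ± 9.73 (SD, n = 4) in WT and 47.2 ± 6.81 (SD, n = 4) in Dp3Tyb hearts, and 21.4 ± 3.95 (SD, n = 2) in WT and 50.9 ± 8.24 (SD, n = 3) in Ts1Rhr hearts. Among hearts with lung and foregut markers, it was 12.4 and 26.7 in WT against 39.8 to 54.0 in the 5 Dp3Tyb hearts, and 18.4 to 26.8 in the 5 WT against 38.1 to 46.8 in 3 Ts1Rhr hearts. The 2 Ts1Rhr hearts low in these markers had the highest values of their group, 55.1 and 60.4. Hearts low in these markers included no Dp3Tyb heart and no WT heart of the Ts1Rhr cohort, so mutant and WT could not be compared among them. Across all alternatives its log2 fold change was between 0.99 and 1.35 in Dp3Tyb and between 0.98 and 1.33 in Ts1Rhr.

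**Figure D1:**
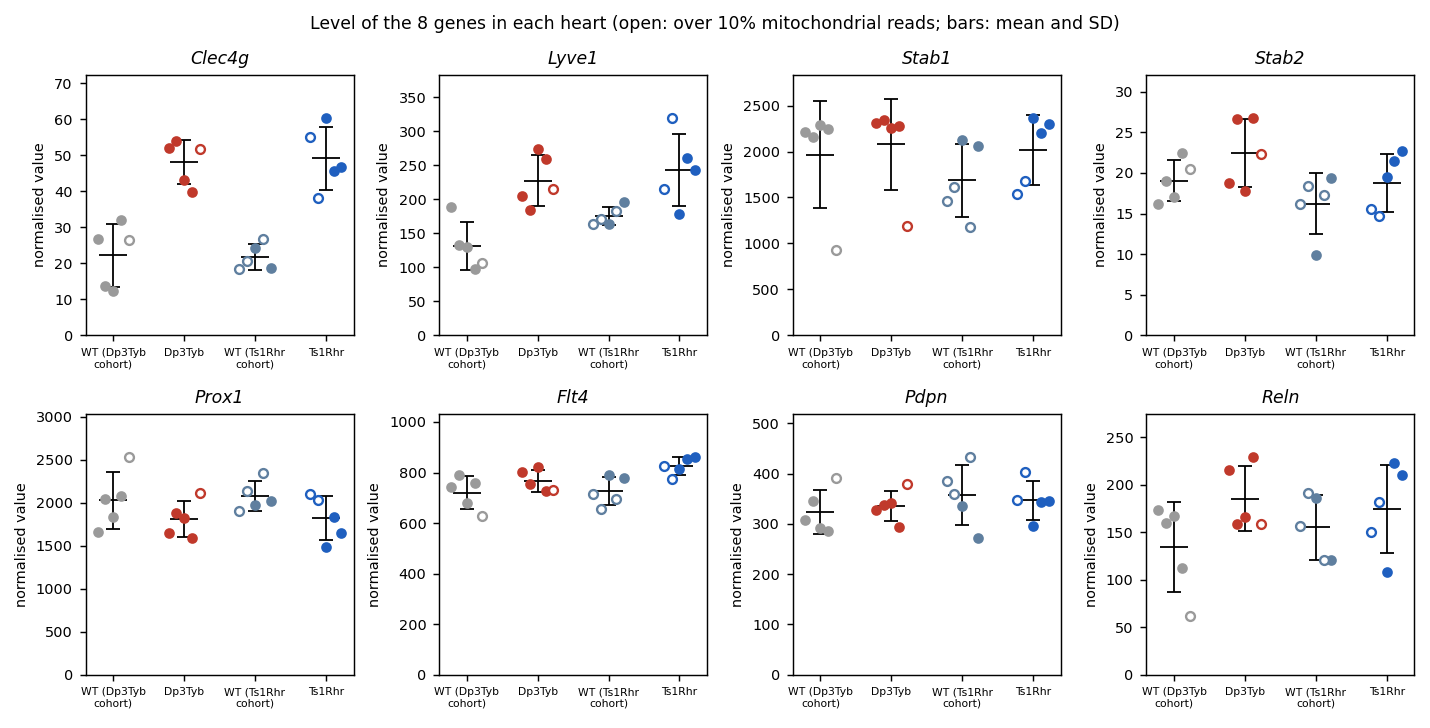
Normalised value (vertical axes, from 0) of each of the 8 genes in each of the 20 hearts, by group (horizontal axes). Points are hearts, open points are the 7 libraries with over 10% mitochondrial reads, and bars give the mean and SD (n = 5). The mutant points lie above all WT points of their cohort for Clec4g only, and the low Stab1 points are open.

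The chromosomal neighbours of Clec4g were examined next. Its nearest protein-coding neighbours on one side are Fcor, Trappc5 and Fcer2a, and on the other side Cd209a, Cd209e and Cd209d, lectin genes of the same cluster. Fcer2a, Cd209a, Cd209e and Cd209d were at or near 0, with a highest value of 1.45 in any heart, and Fcor was between 0 and 13.02. Trappc5, a subunit of a vesicle tethering complex, was expressed at 365 to 481 and its log2 fold changes were -0.10 and 0.04 (limma adjusted p = 0.99996 in Dp3Tyb and 0.874 in Ts1Rhr). The non-coding gene Gm16553, which overlaps Clec4g, was listed at 0 in all 20 hearts. Clec4g was thus read in these hearts without its lectin neighbours.

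Lyve1 encodes a hyaluronan receptor of lymphatic and sinusoidal endothelium and of macrophages. Its normalised values were 188, 132, 129, 98.0 and 106 in the WT hearts of the Dp3Tyb cohort and 204, 185, 273, 259 and 215 in Dp3Tyb hearts. They were 164, 171, 163, 182 and 196 in the WT hearts of the Ts1Rhr cohort and 214, 319, 178, 260.3 and 243 in Ts1Rhr hearts. In each strain 4 of 5 mutant hearts were above the highest WT heart, and the groups overlapped by 1 mutant heart. The means were 131 ± 35.2 and 227 ± 37.3 in the Dp3Tyb cohort (SD, n = 5 each), with a log2 fold change of 0.82 ± 0.18 (SE). They were 175 ± 13.7 and 243 ± 52.9 in the Ts1Rhr cohort (SD, n = 5 each), with a log2 fold change of 0.44 ± 0.14 (SE).

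The Lyve1 values were set beside the lung and foregut markers. Among WT hearts of the Dp3Tyb cohort it was 129 and 188 in the 2 hearts with these markers and 98.0 to 132 in the 3 without, and among Ts1Rhr hearts it was 243 to 319 in the 3 with and 178 and 214 in the 2 without. The ranges overlapped in the first group and not in the second. Because the marker level falls into separate clusters, the relation was read within the 15 hearts that hold the markers, where r was 0.30 (permutation p = 0.411) and rho 0.18 (permutation p = 0.551). In hearts with the markers alone it was 185 to 273 in Dp3Tyb, where the WT hearts had 129 and 188, and 243 to 319 in Ts1Rhr against 163 to 196 in WT. With these hearts alone the log2 fold change was 0.53 in Dp3Tyb and 0.64 in Ts1Rhr, against 0.82 and 0.44 in all hearts. Leaving the 5 hearts out thus lowered the value in one strain and raised it in the other. The part of these markers in the difference was not tested.

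**Figure D2:**
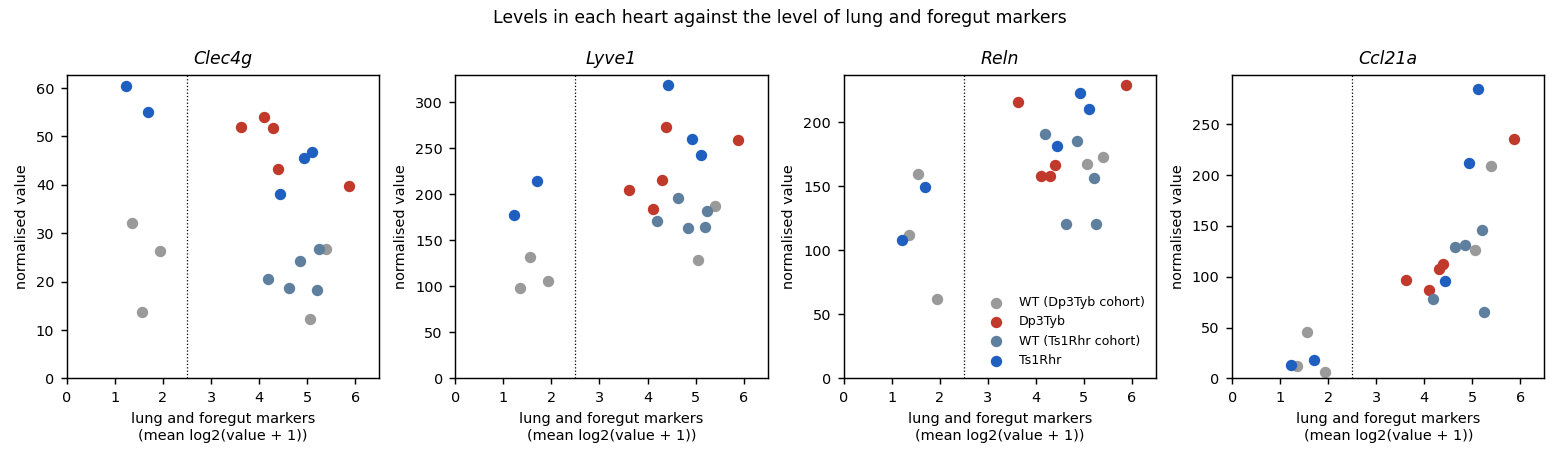
Normalised value (vertical axes, from 0) of Clec4g, Lyve1, Reln and Ccl21a in each heart against the mean log2(value + 1) of the lung and foregut markers (horizontal axes), coloured by group. The dotted line at 2.5 separates the 5 hearts low in these markers from the other 15. Ccl21a is at 5.87 to 45.7 on the left of the line and at 65.1 to 285 on the right, and Clec4g is at 13.7 to 60.4 on the left and 12.4 to 54.0 on the right.

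The 6 marker genes that had not been chosen by their values were tested in fits across all genes. By limma, 8 of 14763 genes (0.0542%) passed an adjusted p of 0.05 in Dp3Tyb, 4 of 14867 (0.0269%) in Ts1Rhr and 2 of 15348 (0.013%) for the difference between strains. None of the 6 passed in any of these by limma, and none by DESeq2 or edgeR on whole reads. At an unadjusted p under 0.05 by limma the count was 0 of 6 in Dp3Tyb, 1 of 6 in Ts1Rhr and 0 of 6 for the difference between strains, where all genes had 413 of 14763, 821 of 14867 and 234 of 15348. The 95% intervals of the fold changes are given with each gene, since a p that misses the threshold does not show that the groups are alike.

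Stab1 and Stab2 encode related scavenger receptors of sinusoidal endothelium. Stab1 values were 2218, 2155, 2284, 2248 and 928 in WT and 2314, 2338, 2261, 2282 and 1187 in Dp3Tyb hearts. They were 1459, 1612, 2120.2, 1175 and 2059.5 in WT and 1535, 1674, 2365, 2197 and 2294 in Ts1Rhr hearts. The groups overlapped in both cohorts. The log2 fold change was 0.11 (95% interval -0.49 to 0.71, limma adjusted p = 0.99996) in Dp3Tyb and 0.27 (-0.10 to 0.64, adjusted p = 0.795) in Ts1Rhr.

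The Stab1 values were set beside the mitochondrial share of the library. Stab1 was between 928 and 1674 in the 7 libraries with over 10% of such reads and between 2059.5 and 2365 in the other 13, with no overlap. Within the 13 libraries the WT and Dp3Tyb means were 2226 ± 54.6 and 2299 ± 34.0 (SD, n = 4 each). In the Ts1Rhr cohort they were 2089.9 ± 42.9 (SD, n = 2) and 2285 ± 84.4 (SD, n = 3). Leaving out WT replicate 5 of the Dp3Tyb cohort turned the log2 fold change in Dp3Tyb to -0.14. The part of RNA quality in the Stab1 level was not tested. Stab1 overlaps Nt5dc2, and with no strand stated for the counting their reads may be split between them. Nt5dc2 was between 1471 and 2088 with log2 fold changes of -0.0084 in Dp3Tyb and 0.0038 in Ts1Rhr.

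**Figure D3:**
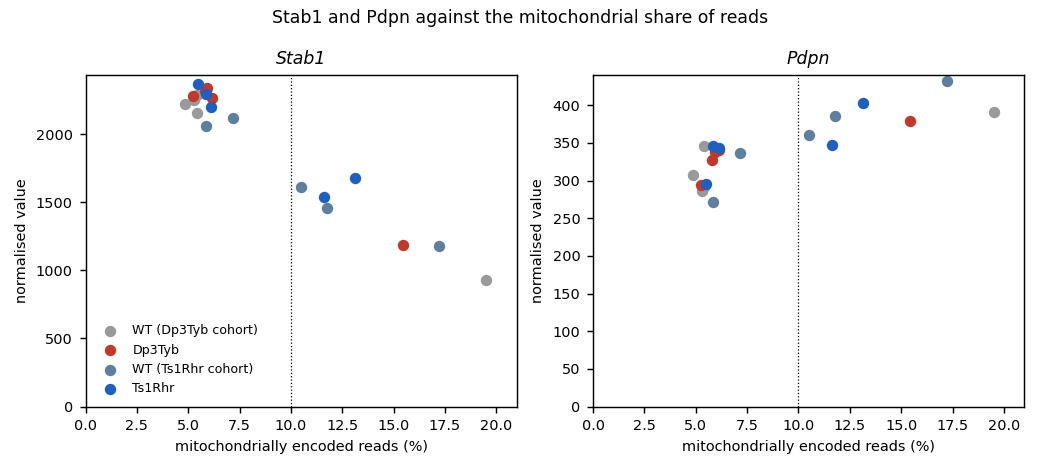
Normalised value of Stab1 and Pdpn (vertical axes, from 0) in each heart against its percentage of mitochondrially encoded reads (horizontal axes), coloured by group, with a dotted line at 10%. Right of the line Stab1 is between 928 and 1674 and left of it between 2059.5 and 2365, while Pdpn is between 347 and 433 on the right and between 271 and 346 on the left.

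Stab2 values were 16.2, 19.0, 17.002, 22.4 and 20.6 in WT and 18.7, 26.6, 17.8, 26.8 and 22.4 in Dp3Tyb hearts. They were 16.2, 18.4, 9.85, 17.2 and 19.4 in WT and 15.6, 14.6, 19.5, 21.5 and 22.7 in Ts1Rhr hearts. The log2 fold changes were 0.22 (95% interval -0.19 to 0.63, limma adjusted p = 0.99996) and 0.21 (-0.30 to 0.72, adjusted p = 0.805). Without WT replicate 3 of the Ts1Rhr cohort, the heart with 9.85, the value in Ts1Rhr was 0.055. Between 7 and 37 reads per library stood behind these values.

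Prox1 encodes the transcription factor that sets lymphatic identity. Its values were 1658, 2037, 1831, 2073 and 2528 in WT and 1649, 1884, 1826, 1589 and 2115 in Dp3Tyb hearts. They were 1907, 2134, 1976, 2350.4 and 2019.9 in WT and 2099, 2033, 1487, 1827 and 1645 in Ts1Rhr hearts. In each strain 1 of 5 mutant hearts was above the WT mean. The log2 fold changes were -0.15 (95% interval -0.41 to 0.10, limma adjusted p = 0.99996) and -0.20 (-0.41 to 0.01, adjusted p = 0.795). The antisense gene Prox1os was between 7.81 and 21.02 in all hearts, far under Prox1. Without the 5 hearts low in lung and foregut markers the log2 fold change in Dp3Tyb was 0.05, and the part of these markers was not tested.

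Flt4 encodes VEGFR3, the receptor for Vegfc. Its values were 741, 792, 680.1, 759.7 and 628 in WT and 802, 756, 823, 726 and 731 in Dp3Tyb hearts. They were 716, 654, 791, 695 and 776 in WT and 828, 774, 813, 852 and 860.3 in Ts1Rhr hearts, of which 4 of 5 were above the highest WT heart. The log2 fold change was 0.10 (95% interval -0.07 to 0.26, limma adjusted p = 0.99996) in Dp3Tyb. In Ts1Rhr it was 0.19 (0.04 to 0.33, limma adjusted p = 0.795). This was the one fold change of the 6 genes whose unadjusted p was under the threshold, and it did not pass the adjustment over all genes. Without the libraries over 10% mitochondrial reads the value in Ts1Rhr was 0.10.

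Pdpn encodes podoplanin, a mucin-like surface protein of lymphatic endothelium and mesothelium. Its values were 307, 346, 291, 286 and 390.5 in WT and 327, 338, 341, 294 and 379 in Dp3Tyb hearts. They were 385, 360.2, 336, 433 and 271 in WT and 347, 403, 295, 344 and 346 in Ts1Rhr hearts. The log2 fold changes were 0.06 (95% interval -0.17 to 0.29, limma adjusted p = 0.99996) and -0.03 (-0.30 to 0.24, adjusted p = 0.945). Pdpn was 347 to 433 in the 7 libraries high in mitochondrial reads and 271 to 346 in the other 13, ranges that did not overlap, as for Stab1, but lay less than 1 normalised value apart. The part of RNA quality in the Pdpn level was not tested.

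Reln encodes reelin, a secreted matrix protein made by lymphatic endothelium. Its values were 173, 159, 167, 112 and 61.7 in WT and 215, 158, 166, 229 and 158 in Dp3Tyb hearts. They were 157, 191, 185, 121 and 120.5 in WT and 149.7, 182, 108, 223 and 210.5 in Ts1Rhr hearts. The groups overlapped, and the lowest heart was WT replicate 5 of the Dp3Tyb cohort, the shallowest library, with 21 reads. The log2 fold changes were 0.53 (95% interval -0.052 to 1.12, limma adjusted p = 0.99996) and 0.15 (-0.29 to 0.60, adjusted p = 0.824). Among hearts with lung and foregut markers the values were 167 and 173 in WT against 158 to 229 in Dp3Tyb, and the log2 fold change there was 0.11 in Dp3Tyb and 0.42 in Ts1Rhr. In Ts1Rhr leaving out mutant replicate 4 lowered the value to 0.056, and leaving out mutant replicate 3 raised it to 0.31. Without WT replicate 5 the value in Dp3Tyb was 0.28, and with the mean of the macrophage list as a covariate it was 0.067. The part of these markers or of that library's depth was not tested.

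**Figure D4:**
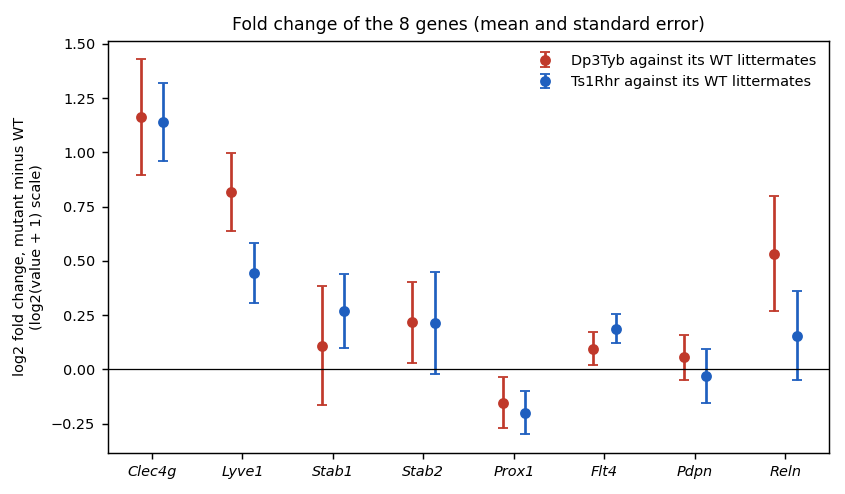
Log2 fold change of mutant against WT littermates (vertical axis, log2(value + 1) scale) for each of the 8 genes, in red for Dp3Tyb and blue for Ts1Rhr, with bars of 1 SE and 5 hearts in each group. Clec4g is at 1.16 and 1.14, Lyve1 at 0.82 and 0.44, and the other 6 genes lie between -0.20 and 0.53.

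The difference between strains was tested for the same 6 genes. It was 0.38 on the log2 scale for Reln (95% interval -0.36 to 1.12) and between -0.16 and 0.09 for the other 5, and the adjusted p by limma was 0.99966 for all 6. The Reln value was 0.12 without WT replicate 5 of the Dp3Tyb cohort, 0.13 without the libraries high in mitochondrial reads, -0.10 with a lung and foregut covariate and -0.32 without the hearts low in these markers. For Clec4g the fold changes of the strains were 0.02 apart and for Lyve1 0.37 apart, with no test. With the lung and foregut covariate Lyve1 was at 0.62 in Dp3Tyb and 0.61 in Ts1Rhr.

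Levels were then compared between genes per kilobase of exon, in the 10 WT hearts. The order was Prox1 (229 ± 27.7 normalised values per kb), Stab1 (177 ± 48.1), Flt4 (87.7 ± 7.03), Pdpn (68.7 ± 10.6), Lyve1 (36.7 ± 8.28), Reln (6.09 ± 1.69), Clec4g (4.64 ± 1.34) and Stab2 (1.64 ± 0.31; SD, n = 10 each). No test was made between genes. Neighbours in this order whose mean ± SD ranges overlapped were Prox1 with Stab1, and Reln with Clec4g. In the mutants the mean of Clec4g was 10.2 per kb in Dp3Tyb and 10.4 in Ts1Rhr, above Reln at 7.80 and 7.35. Of the 2 scavenger receptors, Stab1 thus stood second and Stab2 last.

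Whether the 8 genes varied together among hearts of one genotype was asked next, from log2 values with each group's mean removed, so that the difference between mutant and WT plays no part. Over the 20 hearts Clec4g and Lyve1 gave r = -0.42 (permutation p = 0.172, adjusted p = 0.439 over 28 pairs) and rho = -0.53 (permutation p = 0.0403, adjusted p = 0.204). Without the 2 hearts farthest from the median of Clec4g, r was -0.65. Within the Dp3Tyb cohort r was -0.31 (permutation p = 0.519) and within the Ts1Rhr cohort -0.71 (permutation p = 0.0269), and in the 15 hearts with lung and foregut markers it was 0.06 (permutation p = 0.987). A positive relation between Clec4g and Lyve1 within a group was thus not seen.

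Over the 20 hearts 4 of the 28 pairs passed an adjusted p of 0.05 by r (smallest adjusted p = 0.00308) and 3 by rho (smallest adjusted p = 0.0028). Those passing by r were Stab1 with Pdpn, with Prox1 and with Flt4, and Prox1 with Pdpn, and the Flt4 pair did not pass by rho. For Prox1 with Pdpn r was 0.66 (permutation p = 0.00156, adjusted p = 0.0146) and rho 0.69 (permutation p = 0.00133, adjusted p = 0.0186). Without the 2 hearts farthest from the median of Prox1 r was 0.49, and it was 0.80 within the Dp3Tyb cohort (permutation p = 0.0130) and 0.57 within the Ts1Rhr cohort (permutation p = 0.0655). Since Stab1 fell into separate clusters by mitochondrial share, no r over all hearts is given for its pairs, and the 4 pairs were read within the 13 libraries low in such reads. There r was -0.36 for Stab1 with Pdpn (permutation p = 0.303), -0.44 for Stab1 with Prox1 (permutation p = 0.256), 0.42 for Prox1 with Pdpn (permutation p = 0.173) and -0.53 for Stab1 with Flt4 (permutation p = 0.0742). The last pair was positive over the 20 hearts, so its sign turned, and the other 3 kept theirs. The corresponding rho values were -0.30 (permutation p = 0.416), -0.37 (permutation p = 0.322), 0.36 (permutation p = 0.273) and -0.52 (permutation p = 0.0962). Of the 28 pairs of the 8 genes, none passed an adjusted p of 0.05 in these 13 libraries by r (smallest adjusted p = 0.578) or by rho (smallest adjusted p = 0.267). At an unadjusted permutation p under 0.05 the counts were 1 of 28 by r and 2 of 28 by rho. The pairs that passed over the 20 hearts thus did not pass within those 13 libraries.

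Genes most like each member over the 20 hearts, by Pearson's r of the same group-centred values among 15348 genes, are given as a description. For Clec4g they were Itih3 (r = 0.67), Pdcd2 (0.67), Srp68 (0.65), Dtd1 (0.64) and Tdp1 (0.64), and for Lyve1 Rtl1 (0.78), Ism1 (0.77), Foxf1 (0.77) and Myh8 (0.77). Foxf1, a lung mesenchyme factor, is itself on the list of lung and foregut markers and was between 0.75 and 159. Its r with Lyve1 was thus taken across the clusters of these markers. In the 15 hearts that hold the markers, Lyve1 with the list gave r = 0.30 (permutation p = 0.411). For Stab1 none is given, because its values over all hearts fall into clusters. The Pdpn ranges also did not overlap by mitochondrial share, and its r over all hearts was taken across both sets of libraries. For Stab2 they were Gm12522 (0.76), Myo1a (0.73) and Ide (0.73), and for Prox1 Sbf2 (0.94), Prune2 (0.92) and Ppp1r3a (0.92). For Flt4 they were Rnf185 (0.87), R3hdm4 (0.85) and Ppm1b (0.83), for Pdpn Itgb3bp (0.91), Ube2q1 (0.91) and Blzf1 (0.91), and for Reln Tenm4 (0.93), Gm13563 (0.92) and Kif21b (0.92). No member was among the genes most like another member.

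The rest of the lymphatic programme was described from 25 growth and valve genes, of which 24 were tested. None passed by limma (smallest adjusted p = 0.99996 for Dp3Tyb and 0.795 for Ts1Rhr) or by DESeq2. At an unadjusted p under 0.05 by limma was 1 in each strain, where all genes had 413 of 14763 and 821 of 14867. In Dp3Tyb 15 were higher and 9 lower, with a median log2 fold change of 0.09, and in Ts1Rhr 9 were higher and 15 lower, with a median of -0.04, while the median of all genes was -0.0027 and -0.0016. The summed level of the 25 genes was 17293 to 18675 in WT and 18223 to 19589 in Dp3Tyb hearts, and 17945 to 18766 in WT and 17962 to 19648 in Ts1Rhr hearts. The largest log2 fold changes were those of Tbx1, a transcription factor upstream of Flt4, at 1.56 in Dp3Tyb (adjusted p = 0.99996 by limma) and -0.69 in Ts1Rhr (adjusted p = 0.795), and of Ccl21a, the chemokine by which lymphatic vessels guide immune cells, at 1.55 (adjusted p = 0.99996) and -0.61 (adjusted p = 0.822). The mean value of Ccl21a in Ts1Rhr hearts was 125 ± 120.4 against 110.002 ± 35.9 in WT (SD, n = 5 each), so its means and its log2 values differed in direction.

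Ccl21a and Tbx1 split between hearts by the lung and foregut markers. Ccl21a was between 5.87 and 45.7 in the 5 hearts low in these markers and between 65.1 and 285 in the other 15. Tbx1 was between 0 and 7.19 in the 5 and between 16.2 and 44.9 in the 15. Mmrn1, a lymphatic matrix protein, and the lymphatic growth genes Vegfd and Ccbe1, named after their values were seen, were likewise at 79.9 to 171, 63.9 to 126 and 30.2 to 49.9 in the 5 and at 165 to 322, 136 to 217 and 59.0 to 122 in the 15. In each of these 5 genes save Mmrn1 the ranges did not overlap. Since the mean of the whole lymphatic list fell into the same clusters, relations with it were read within the 15 hearts: with Lyve1 r was 0.16 (permutation p = 0.637) and rho 0.07 (permutation p = 0.842), and with Reln r was 0.36 (permutation p = 0.217) and rho 0.28 (permutation p = 0.352).

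The liver sinusoidal list held 20 genes beside the members, and 9 of them were expressed highly enough to be tested. None passed by limma (smallest adjusted p = 0.99996 and 0.795) or DESeq2. At an unadjusted p under 0.05 by limma was 1 in each strain, where all genes had 413 of 14763 and 821 of 14867. In Dp3Tyb 8 of 9 were higher, with a median log2 fold change of 0.23, and in Ts1Rhr 6 of 9, with a median of 0.14. The largest were Oit3, a secreted liver endothelial protein, and the ligands Wnt2 and Wnt9b. Oit3 had log2 fold changes of 0.52 (adjusted p = 0.99996 by limma) and 0.29 (adjusted p = 0.795), Wnt2 0.47 in Dp3Tyb (adjusted p = 0.99996) and -0.17 in Ts1Rhr, and Wnt9b 0.23 in Dp3Tyb and 0.43 in Ts1Rhr (adjusted p = 0.795). At least 6 of the 7 Cd209 lectin genes of the list were under 1 normalised value in every heart of each group. The summed level of the 20 genes was 4965 to 5471 in WT and 5244 to 5789.6 in Dp3Tyb hearts, and 5059 to 5462 in WT and 5422 to 5779.7 in Ts1Rhr hearts. The Cd209 lectins were thus at or near 0 in hearts in which Clec4g, of the same family, was read.

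Lyve1 was compared with the liver sinusoidal list among hearts of one genotype. Over the 20 hearts r was 0.70 (permutation p = 0.00494, adjusted p = 0.0563 over 80 relations) and rho was 0.78 (permutation p = 0.00047, adjusted p = 0.0376), and without the 2 hearts farthest from the median of the list r was 0.67. Within the Dp3Tyb cohort r was 0.82 (permutation p = 0.0118) and within the Ts1Rhr cohort 0.50 (permutation p = 0.217). In the 13 libraries low in mitochondrial reads r was 0.79 (permutation p = 0.00101, adjusted p = 0.0808), and in the 15 hearts with lung and foregut markers 0.70 (permutation p = 0.00715, adjusted p = 0.191). The relation thus passed the adjustment by rho over the 20 hearts, and not by r there or in either smaller set. Its sign was the same in both cohorts. Clec4g went the other way with the same list, at r = -0.51 (permutation p = 0.0584, adjusted p = 0.180) and rho = -0.58 (permutation p = 0.0216, adjusted p = 0.123), and did not pass. Lyve1 was also positively related to the macrophage list over the 20 hearts, at r = 0.59 and rho = 0.61, which did not pass the adjustment. A positive relation of Lyve1 was thus not particular to the sinusoidal list.

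Prox1 was compared with the heart muscle list in the same way. Over the 20 hearts r was 0.74 (permutation p = 0.00191, adjusted p = 0.0498 over 80 relations) and rho 0.72 (permutation p = 0.00294, adjusted p = 0.0594). Without the 2 hearts farthest from the median of the list r was 0.72. It was 0.93 within the Dp3Tyb cohort (permutation p = 0.00027) and 0.49 within the Ts1Rhr cohort (permutation p = 0.271), and 0.39 in the 13 libraries low in mitochondrial reads (permutation p = 0.293). In the 15 hearts with lung and foregut markers r was 0.90 (permutation p = 0.00016, adjusted p = 0.0128) and rho 0.89 (permutation p = 0.00013, adjusted p = 0.0104). The relation thus passed by both measures in those 15 hearts, by r alone over the 20, and in neither the Ts1Rhr cohort nor the 13 libraries. Of the 80 relations between a member and a list, 5 had an adjusted p under 0.05 by r over the 20 hearts, 1 by rho and none by both.

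Beside Prox1 with heart muscle, the relations that passed by r were those of Flt4 and Reln given here, and those of Stab1 with the endocardial list and Reln with the lymphatic list, for which no r over all hearts is given because of the clusters. Stab1 with the endocardial list had r = 0.26 in the 13 libraries low in mitochondrial reads (permutation p = 0.447) and rho = 0.29 (permutation p = 0.425), while over the 20 hearts, where it passed, it was negative. Flt4 with the pan-endothelial list had r = 0.66 (permutation p = 0.00311, adjusted p = 0.0498) and rho = 0.68 (permutation p = 0.00224, adjusted p = 0.0594), and r = 0.73 without the 2 hearts farthest from the median of the list. It was 0.85 within the Dp3Tyb cohort (permutation p = 0.00597), 0.52 within the Ts1Rhr cohort (permutation p = 0.188) and 0.42 in the 13 libraries (permutation p = 0.146). Reln went the other way with heart muscle, at r = -0.70 (permutation p = 0.00229, adjusted p = 0.0498) and rho = -0.67 (permutation p = 0.00297, adjusted p = 0.0594), and r = -0.70 without the 2 farthest hearts. It was -0.80 within the Dp3Tyb cohort (permutation p = 0.0008), -0.56 within the Ts1Rhr cohort (permutation p = 0.150) and -0.69 in the 13 libraries (permutation p = 0.0300, adjusted p = 0.343). In the 15 hearts with lung and foregut markers it was -0.52 (permutation p = 0.0709), and for Flt4 the value there was 0.69 (permutation p = 0.0136, adjusted p = 0.263). Both relations thus kept their sign in each cohort, and their adjusted p-values lay on either side of the threshold by r and rho.

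Markers of other cell types that use these genes were read beside them. Of the macrophage list 13 of 13 tested genes were higher in Dp3Tyb and 12 of 14 in Ts1Rhr, with median log2 fold changes of 0.30 and 0.29, and none passed by limma (smallest adjusted p = 0.99996 and 0.795) or DESeq2, with 2 and 5 at an unadjusted p under 0.05 by limma, where all genes had 413 of 14763 and 821 of 14867. Its summed level was 1468 to 2433 in WT and 2110.1 to 2567 in Dp3Tyb hearts, and 1686 to 2041 in WT and 1747 to 2731 in Ts1Rhr hearts, so the groups overlapped. Tyrobp, an adaptor of myeloid receptors, was at 0.48 and Fcgr1, an antibody receptor, at 0.44 in Dp3Tyb, and Folr2, a folate receptor of tissue macrophages, at 0.67 and Fcgr1 at 0.49 in Ts1Rhr. With the mean of the macrophage list as a covariate the log2 fold changes of Lyve1 were 0.61 and 0.23, and those of Clec4g 1.35 and 1.33. The Lyve1 values were thus smaller with the covariate and those of Clec4g larger. Among hearts of one genotype Lyve1 gave r = 0.59 with the macrophage list (permutation p = 0.0437, adjusted p = 0.155 over 80 relations). Its rho was 0.61 (permutation p = 0.0161, adjusted p = 0.102). For Clec4g r was -0.41 (permutation p = 0.267, adjusted p = 0.411) and rho -0.40 (permutation p = 0.150, adjusted p = 0.325). None of these passed the adjustment. The part of macrophages in either gene was not tested beyond these values.

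Of the pan-endothelial list of 15 genes 10 were higher in Dp3Tyb and 13 in Ts1Rhr, with medians of 0.05 and 0.13, and of the 10 endocardial genes 5 were higher in each strain, with medians of 0.01 and 0.01. Lung and foregut markers had medians of 1.89 in Dp3Tyb and -1.70 in Ts1Rhr over 10 tested genes, and the hearts low in them were all WT in the first cohort and all mutant in the second. Medians were 0.16 and -0.16 for liver parenchyma (3 of 12 genes tested), 0.02 and 0.04 for epicardium and mesothelium, -0.11 and -0.06 for heart muscle and 0.15 and 0.29 for erythroid cells. None of these genes passed by limma or DESeq2 in either strain. At an unadjusted p under 0.05 by limma were 3 of 10 endocardial genes in Ts1Rhr and 0 in Dp3Tyb, and at most 1 gene in either strain of each of the pan-endothelial, liver parenchyma, lung and foregut, epicardial, heart muscle and erythroid lists. The count over all genes was 821 of 14867 in Ts1Rhr and 413 of 14763 in Dp3Tyb.

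**Figure D5:**
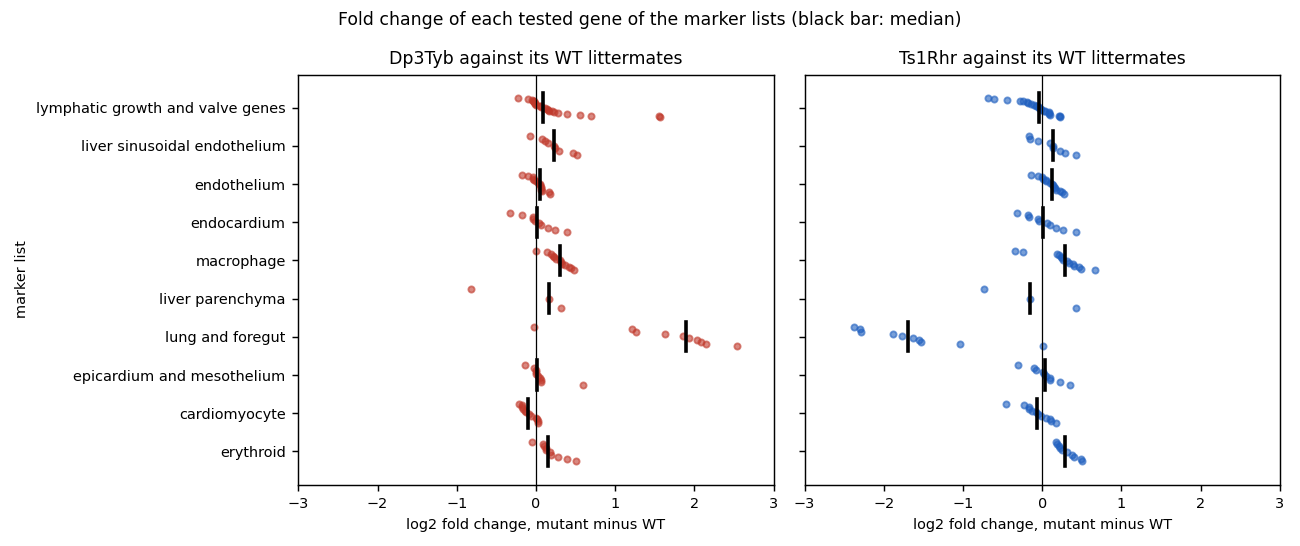
Log2 fold change of mutant against WT littermates (horizontal axes) of every tested gene of the 10 marker lists (vertical axis), for Dp3Tyb on the left and Ts1Rhr on the right. Points are genes and black bars are list medians. Only the lung and foregut list has medians far from 0, at 1.89 and -1.70, and the lymphatic list is centred at 0.09 and -0.04.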

How the data were processed

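Poly(A) RNA of 20 whole hearts was sequenced by the study. Per the submitters' processing notes the authors used Trimmomatic 0.36, STAR 2.5.2a, RSEM 1.2.31 and DESeq2 with build GRCm38, and the annotation release and the use of strand are not given in the sources used here. The deposited values are a signal, gene counts divided by the size factor of each library. Multiplied by the size factor, 100% of values were whole reads at a tolerance of 0.001, and the size factors recomputed from those reads differed by at most 3.55e-15 of their size.

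Groups came from the labels, with 5 hearts each. Replicate numbers only name libraries, and where nothing says that hearts were from separate litters the p-values measure the spread between these hearts. Gene symbols came from GENCODE vM39, which named 44565 of 48795 identifiers (91.3%), and exon lengths from the same release. Positions and promoters are RefSeq's on GRCm38.p6.

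Mutant and WT hearts of a strain were compared by limma 3.58.1 in R 4.3.3 on log2(value + 1), with trended and robust variances, 2-sided, over genes that reached a value of 10 in 5 or more libraries, and p-values were adjusted by Benjamini-Hochberg over all genes tested (threshold 0.05). All 20 libraries entered 1 fit for the difference between strains. edgeR 4.0.16 (quasi-likelihood) and DESeq2 1.42.0 on the recovered whole reads were alternatives. Relations between genes within groups used group-centred log2 values and 100000 permutations within groups. The scripts were tested on simulated data.

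In the lymphatic, liver sinusoidal and macrophage lists 2 genes per strain were named by size of fold change, and of the other lists only Ttn. The largest fold changes of the other lists are otherwise not given by gene. Genes outside the 8 were also named by neighbourhood or overlap, and by likeness, 5 for Clec4g and Lyve1 and 3 for the others except Stab1. One of these genes is not reported here. The members and lists were chosen with earlier results of these data known. The split by lung and foregut markers, at a list mean of 2.5, was chosen after seeing the data.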

Additional observations from a re-analysis of the deposited data

Results flagged for a closer look

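In 2 of the 32 combinations of a gene and a group, 1 heart lay far from the other 4 by Dixon's test, in which the gap to the nearest heart is divided by the range of the group (threshold 0.71 for 5 hearts). Chance gives about 1 such case in 20 groups. Stab1 was 928 in WT replicate 5 of the Dp3Tyb cohort, where the other WT hearts had 2155 to 2284 (gap over range 0.905), and 1187 in Dp3Tyb replicate 5, where the other Dp3Tyb hearts had 2261 to 2338 (gap over range 0.933). These were the libraries with 19.5% and 15.5% mitochondrially encoded reads, and the part of RNA quality in these values was not tested.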

How the results depend on the processing

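No paired analysis was possible because the replicate numbers were given in accession order and pair no hearts. Over all genes, limma called 8 genes in Dp3Tyb, but 4 with no filter, 34 with DESeq2, 30 without the libraries over 10% mitochondrial reads, 1 with a lung and foregut covariate, 0 without the hearts low in lung and foregut markers and 17 in 1 fit of all 20 libraries, and 2 to 13 when 1 library was left out. In Ts1Rhr it called 4, but 25 with DESeq2, 11 in 1 fit of all 20 libraries, 0 without the libraries over 10% mitochondrial reads, with a lung and foregut or a macrophage covariate, or without the hearts low in lung and foregut markers, and 1 to 6 when 1 library was left out. For the difference between strains it called 2, but 0 with no filter, TMM scaling, a lung and foregut covariate or without the hearts low in these markers, and 0 to 3 when 1 library was left out. By limma at an unadjusted p under 0.05 the counts in all hearts were 413, 821 and 234.

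Of 515 alternative values of the 8 genes 481 were counted as kept and 33 reversed. For the 6 tested genes, kept meant the same direction and the same side of the threshold. For Clec4g and Lyve1, which have no test, it meant the same direction and a move smaller than the within-group SD. None of 431 alternatives of the 6 tested genes passed (smallest adjusted p = 0.423). Stab1 in Dp3Tyb (0.11) became -0.015 with a lung and foregut covariate, -0.31 with a macrophage covariate and -0.16 without the hearts low in lung and foregut markers, and was -0.14 to 0.30 when 1 library was left out, -0.14 without WT replicate 5. The difference between strains of Stab1 was -0.41 to 0.030 when 1 library was left out, above 0 only without Dp3Tyb replicate 5. That of Stab2 (0.0030) became -0.00050 with a pseudocount of 0.1, -0.0028 with TMM scaling and -0.33 without the libraries over 10% mitochondrial reads, and was -0.077 to 0.16 when 1 library was left out. Prox1 in Dp3Tyb (-0.15) became 0.021 with a macrophage covariate and 0.0495 without the hearts low in lung and foregut markers, and its difference between strains was -0.023 to 0.13 when 1 library was left out. Pdpn in Ts1Rhr (-0.03) became 0.12 without the libraries over 10% mitochondrial reads, 0.054 with a lung and foregut covariate and 0.042 without the hearts low in these markers, and was -0.13 to 0.042 when 1 library was left out. Its difference between strains became -0.037 without the libraries over 10% mitochondrial reads. The difference of Reln (0.38) became -0.10 with a lung and foregut covariate and -0.32 without the hearts low in these markers. Lyve1 in Dp3Tyb (0.82) moved to 0.53 without those hearts. The leaving out of these hearts was chosen after seeing the data, fewer hearts were then fitted, and the cause was not tested. When 1 library was left out the fold changes that kept their sign were 0.15 to 0.36 for Stab1 in Ts1Rhr, 0.15 to 0.29 and 0.055 to 0.29 for Stab2 (Dp3Tyb and Ts1Rhr), -0.22 to -0.070 and -0.25 to -0.13 for Prox1, 0.047 to 0.13 and 0.15 to 0.22 for Flt4, 0.011 to 0.12 for Pdpn in Dp3Tyb, and 0.28 to 0.65 and 0.056 to 0.31 for Reln. Stab2 in Ts1Rhr had no value without the libraries over 10% mitochondrial reads, since it no longer passed the filter. The fewest reads stood behind Stab2, with 7 to 37 per library, and Clec4g, with 9 to 69.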
